A study of Mus musculus with 12 samples.

Results

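The genes of Polycomb repressive complex 2 (PRC2) and of the H3K27 demethylases were followed in cultured oligodendrocyte precursor cells (OPCs) of the mouse, a dividing population from which myelinating oligodendrocytes arise. The 10 genes were fixed by name: the catalytic subunits Ezh2 and Ezh1, the core subunits Eed, Suz12, Rbbp4 and Rbbp7, the accessory subunits Jarid2 and Mtf2, and the demethylases Kdm6a and Kdm6b. They are 10 of the 55536 genes in the count tables, and all 10 were among the 17919 genes that passed the filter on low counts. Upon IFN-γ treatment Ezh2, Suz12 and Rbbp7 rose by 1.17- to 1.2-fold in counts in the fit with litter as a block, Ezh2 in 3 of 4 litters and the other two in all 4, while Ezh1 and Jarid2 fell to 0.726 and 0.816 times the Ctr level. With an offset for transcript length only Rbbp7 and Ezh1 were still called, where 4833 of the 17919 genes were. On the TPM scale, limma called Ezh2 and Rbbp7 of these 5, where 4454 genes were called, and Jarid2 turned sign. No member passed the test upon dexamethasone, where 2.57% of all genes did. With the pairing by litter 5 of 10 members were called upon IFN-γ, against 29.2% of all genes. Without the pairing no member passed the test in any comparison, where 0.547% to 13.1% of all genes did.

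Total RNA was sequenced from primary OPCs of pooled brains of P4 to P6 pups, taken by Sox10-GFP sorting or by CD140a beads, so that no library comes from a single animal. All cultures had PDGFaa (10 ng/ml) and bFGF (20 ng/ml) per the labels, which keep OPCs dividing; the study's methods give higher amounts of both. Ctr-OPCs had no further treatment, Dexa-treated OPCs had dexamethasone, a synthetic glucocorticoid (1 µM, 48 h), and IFN-γ-treated OPCs (IFNg) had the cytokine IFN-γ (100 ng/ml, 48 h). The labels also give "EAE" as the mouse model for every sample, Ctr included, and which library came from which isolation is not given in the sources used here. Each group has 4 replicates from different litters, and replicate n of the 3 groups is called litter n here.

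PRC2 writes the methyl mark H3K27me3, which keeps developmental genes silent, and EZH2 or EZH1 carries the enzyme activity. EED and SUZ12 are needed for that activity, RBBP4 and RBBP7 bind histones, and JARID2 and MTF2 belong to alternative forms of the complex and help to bring it to its target sites. KDM6A and KDM6B remove the mark. EZH2 is the main catalytic subunit in dividing cells and EZH1 is better kept in cells that have left the cycle, and in the oligodendrocyte lineage EZH2 is known for its role in precursor proliferation and differentiation. The study asks how chromatin readies immune genes in OPCs for IFN-γ, which is the reason to look at the makers and removers of this mark.

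Promoter sequence is shown for the catalytic pair and for Suz12, since these genes moved in different directions upon IFN-γ. RefSeq windows on GRCm38.p6 run from 250 bases before to 50 bases after the start and were found for 9 of the 10 members, all but Kdm6b. Capitals mark the letters of an E2F element (TTTCCCGC, TTTGGCGC, TTTGCCGC or TTTCGCGC on either strand), the element through which E2F factors drive S phase genes. The Ezh2 window is at chr6:47594981-47595280 (minus strand), the Suz12 window at chr11:79992856-79993155 (plus strand) and the Ezh1 window at chr11:101226414-101226713 (minus strand).
Ezh2: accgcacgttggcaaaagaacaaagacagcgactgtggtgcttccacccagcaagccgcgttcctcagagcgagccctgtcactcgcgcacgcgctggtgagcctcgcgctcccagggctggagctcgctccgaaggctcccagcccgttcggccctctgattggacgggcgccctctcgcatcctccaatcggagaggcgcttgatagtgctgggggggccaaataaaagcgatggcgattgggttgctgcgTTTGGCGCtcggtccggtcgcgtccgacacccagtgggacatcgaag
Suz12: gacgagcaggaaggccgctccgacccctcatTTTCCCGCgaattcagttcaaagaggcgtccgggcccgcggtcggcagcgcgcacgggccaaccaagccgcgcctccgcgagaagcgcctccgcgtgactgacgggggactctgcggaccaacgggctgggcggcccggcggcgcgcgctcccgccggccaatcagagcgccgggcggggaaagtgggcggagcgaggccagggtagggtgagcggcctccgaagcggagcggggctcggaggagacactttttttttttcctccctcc
Ezh1: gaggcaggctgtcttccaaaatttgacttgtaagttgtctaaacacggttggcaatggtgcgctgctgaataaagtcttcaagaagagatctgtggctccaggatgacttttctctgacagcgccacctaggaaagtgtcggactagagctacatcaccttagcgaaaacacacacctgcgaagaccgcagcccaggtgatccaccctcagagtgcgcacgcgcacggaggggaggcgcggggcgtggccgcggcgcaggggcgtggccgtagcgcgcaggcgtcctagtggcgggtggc
The E2F letters begin at base +4 in Ezh2 and at -219 in Suz12, and no other member window holds them. Of all 32851 windows of this length, 2.26% hold 1 or more of these letters. GC content was 64.3% for Ezh2, 71.0% for Suz12 and 59.3% for Ezh1, against a median of 52.7% over all windows. The Ezh2 window spans the annotated start of the coding transcript of 2787 bases (47595030). The coding transcript of 2115 bases, which held 47.9% of the Ezh2 reads on average in Ctr, is annotated to start outside it, at 47577660. A match of letters is a description of the window and not a binding site.

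Libraries held 19209063 to 52074652 reads assigned to genes, except that the table of Dexa replicate 3 stops after 33.7% of the transcripts. That library lists 4 of the members whole (Ezh1, Suz12, Jarid2 and Kdm6b) and stays out of the fits over all genes, so Dexa has 3 libraries there. The tables of Ctr 1, Dexa 3 and Dexa 4 are written with 6 decimals, unlike the other 9, and whether they were processed otherwise is not given in the sources used here. All 8 OPC markers were present in every complete library, Pdgfra at 83.3 to 420.3 TPM, and litter 1 was lowest for Sox10, at 30.9 to 51.6 TPM against 96.5 to 166.5 TPM in the other litters. Summed microglia markers reached at most 0.472 TPM in Ctr and 0.916 TPM in IFNg, with Cx3cr1 listed at 0 in 8 of the 11 complete libraries.

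The order of the levels in Ctr-OPCs was read on the TPM scale, which divides by transcript length. Rbbp4 was highest at 58.8 ± 6.94 TPM (SD, n = 4), followed by Rbbp7 at 48.4 ± 11.9, Ezh2 at 29.7 ± 3.56 and Eed at 19.7 ± 1.31 TPM. Kdm6a was at 15.8 ± 3.80, Mtf2 at 13.96 ± 1.80, Jarid2 at 10.8 ± 2.36 and Suz12 at 9.09 ± 0.621 TPM. Ezh1, at 3.01 ± 0.986 TPM, and Kdm6b, at 1.01 ± 0.180 TPM, were the lowest. The ranges of neighbours overlapped from Eed through Suz12 and between Rbbp4 and Rbbp7. They did not overlap between Rbbp7 and Ezh2, Ezh2 and Eed, Suz12 and Ezh1, or Ezh1 and Kdm6b. Rbbp4 and Rbbp7 also serve in other histone complexes, so their level is not that of PRC2 alone.

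**Figure D1:**
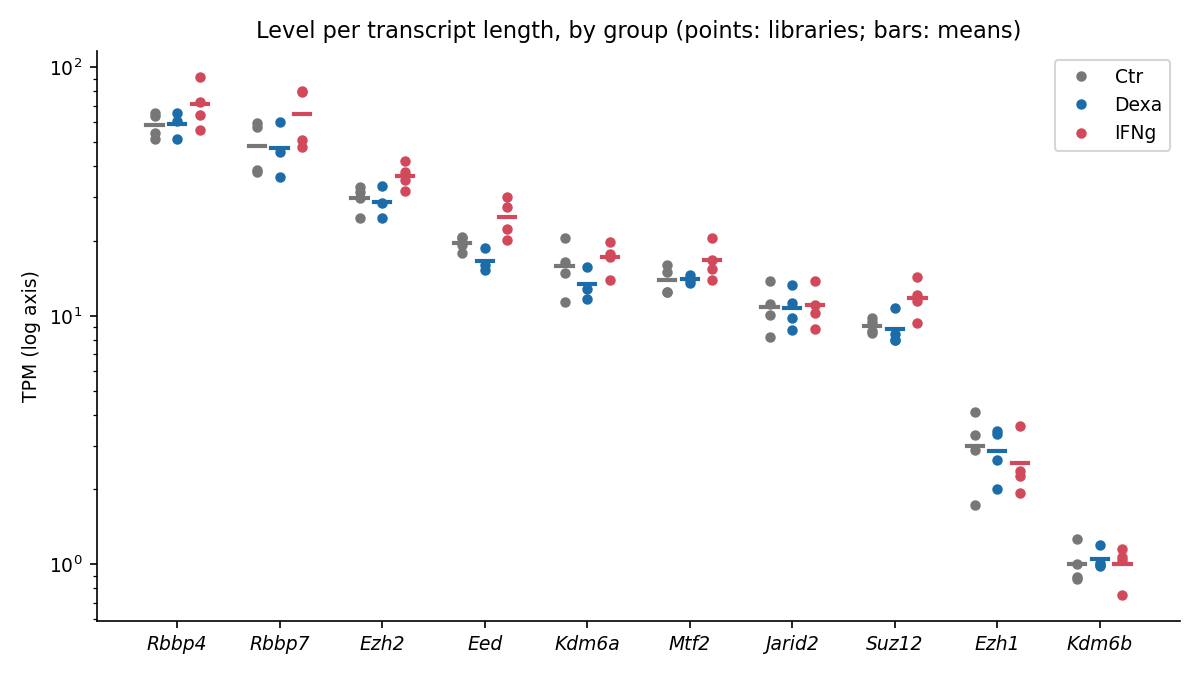
Level of each gene in TPM (log axis), in order of the Ctr mean, with 1 point per library and a bar at the group mean for Ctr (n = 4), Dexa (n = 3, or 4 for Ezh1, Suz12, Jarid2 and Kdm6b) and IFNg (n = 4). Rbbp4 lies highest, at 58.8 TPM in Ctr, and Kdm6b lowest, at 1.01 TPM.

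The first comparison asks which of these genes respond to IFN-γ. In the fit with litter as a block, 5 of the 10 members were called at an adjusted p under 0.05, which is 3 higher and 2 lower. Over all 17919 genes 29.2% were called, 15.2% higher and 14.1% lower, so calls were common in this comparison. The median log2 fold change was 0.13 over the members and -0.01 over all genes, and the median size of the change was 0.22 and 0.21. Without the block 0 of 10 members were called, against 12.8% of all genes. The quasi-likelihood test of edgeR with the block called 7 members, against 31.3% of all genes. In cultures of mixed cells, a lower share of a cell type and less RNA per cell cannot be told apart.

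Ezh2 (chr6:47530139-47595341, minus strand, GRCm38) had normalized counts of 3174, 2506, 2400 and 2296 in Ctr litters 1 to 4 and of 3096, 3035, 3018 and 2900 in IFNg. The 4 IFNg libraries lay close together, and the groups overlapped through Ctr 1, the highest of all. The log2 fold change was 0.23 ± 0.08 (SE), with 3 of 4 litters higher upon IFN-γ and an adjusted p of 0.0275 (0.0233 in edgeR, 0.378 without the block). The call did not hold without Ctr 2, Ctr 3, Ctr 4, Dexa 2, IFNg 2, IFNg 3 or IFNg 4, each left out in turn, with an adjusted p of 0.0584 to 0.188. It was also lost with the transcript length offset (0.13, adjusted p = 0.268) and with only the Ctr and IFNg libraries (0.22, adjusted p = 0.0618). A lincRNA on the other strand, Gm26625, overlaps the gene.

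Ezh1 (chr11:101191115-101226463, minus strand), the weaker catalytic paralogue, moved in the other direction. Its normalized counts were 311.2, 430.6, 581.3 and 563.6 in Ctr and 264.3, 282.2, 420.8 and 390.3 in IFNg. Every litter was lower upon IFN-γ, although the groups overlapped. The log2 fold change was -0.46 ± 0.11, the largest in size among the members in this fit, with an adjusted p of 0.000248 (0.00384 in edgeR). The call held without any single library, but not without the block (adjusted p = 0.303) or in limma on log2(TPM + 1), where the change was -0.16 (adjusted p = 0.403). Per transcript length the level was 1.73, 2.90, 4.10 and 3.30 TPM in Ctr and 1.94, 2.27, 2.38 and 3.59 TPM in IFNg, higher in litters 1 and 4 and lower in litters 2 and 3. With the transcript length offset the change was -0.39 (adjusted p = 0.0164).

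The TPM ratio of Ezh2 to Ezh1 joins both genes. It was 19.1, 10.8, 7.26 and 7.51 in Ctr litters 1 to 4 and 19.5, 18.4, 13.3 and 9.84 in IFNg, higher upon IFN-γ in each litter. The ratio of litter 1 was high with and without treatment.

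Among the core subunits, Suz12 (chr11:79993106-80034123) and Rbbp7 (chrX:162760402-162779092) rose. Suz12 counted 2023, 1824, 1747 and 1782 in Ctr and 2229, 2452, 2007 and 2155 in IFNg, higher in 4 of 4 litters, and the groups overlapped by a single pair, Ctr 1 and IFNg 3. Its log2 fold change was 0.26 ± 0.08 (adjusted p = 0.00658, and 0.00921 in edgeR), and without the block the adjusted p was 0.0605. The call was lost without Ctr 2 (adjusted p = 0.0904), Ctr 4 (0.0607) or IFNg 2 (0.0877). It was also lost with the transcript length offset (0.19, adjusted p = 0.0781) and in limma on log2(TPM + 1) (0.34, adjusted p = 0.0501). Rbbp7 counted 6556, 5189, 3550 and 3734 in Ctr and 6843, 6173, 4623 and 4466 in IFNg. The litters differed more than the treatment, yet each was higher with IFN-γ. Its log2 fold change was 0.24 ± 0.07 (adjusted p = 0.00472, 0.708 without the block), and the call was lost without Ctr 3 (0.0974), Ctr 4 (0.054) or IFNg 3 (0.0868). Txlng overlaps Rbbp7 on the other strand, as noncoding genes do Suz12, Eed and Kdm6b.

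The other core subunits did not pass. Eed, the subunit that reads the mark, counted 1115, 990.7, 821 and 861.1 in Ctr and 1218, 1264, 1005.9 and 875.5 in IFNg. All 4 litters were higher by 0.02 to 0.35 on the log2 scale, and the log2 fold change of 0.20 ± 0.09 had an adjusted p of 0.0707. Eed was called by edgeR (0.0446), by limma on log2(TPM + 1) (0.0309) and without IFNg 4 (0.0301). Rbbp4 ranged from 8854 to 11321 in Ctr and from 9626 to 11315 in IFNg, with a log2 fold change of 0.08 (95% interval -0.05 to 0.21).

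The accessory subunits differed in direction. Jarid2 (chr13:44729474-44921643) counted 2353, 2446, 3330 and 2988 in Ctr and 1958, 1938, 2595 and 2575 in IFNg, lower in 4 of 4 litters although the groups overlapped. Its log2 fold change in counts was -0.29 ± 0.07 (adjusted p = 0.000267, 0.343 without the block), and the call held without any single library. On the log2(TPM + 1) scale the sign turned to 0.03 (adjusted p = 0.888), and with an offset for transcript length the change was -0.14 (adjusted p = 0.247). Per transcript length the level was 8.21, 10.06, 13.85 and 11.15 TPM in Ctr and 8.88, 11.02, 10.3 and 13.82 TPM in IFNg, higher in 3 litters and lower in litter 3. On that scale the median change of all genes was 0.09, against -0.01 in counts.

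Mtf2 (chr5:108065674-108109004) counted 1448, 1462, 1419 and 1329 in Ctr and 1576, 1867, 1490 and 1508 in IFNg. It was the single member whose groups did not overlap, as for 14.3% of all genes tested. Its log2 fold change of 0.18 ± 0.08 had an adjusted p of 0.0694 (0.0422 in edgeR). Protein-coding transcripts held 46.9% ± 7.32 (SD, n = 4) of the Mtf2 reads in Ctr and 48.5% ± 4.99 in IFNg, so about as many reads were assigned to its noncoding and decay transcripts. Tmed5 overlaps the gene on the other strand.

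The demethylases did not change detectably. Kdm6a (chrX:18162575-18279936), also a subunit of an H3K4 methyltransferase complex, counted 1666, 1817, 2662 and 2193 in Ctr and 1674, 1864, 2460 and 2329 in IFNg. Its log2 fold change was 0.00 ± 0.07, with a 95% interval of -0.14 to 0.14, or 0.910- to 1.10-fold. Kdm6b (chr11:69398508-69413675), the demethylase known to be induced by inflammatory signals in macrophages, counted 193.7, 220.6, 230.7 and 235.6 in Ctr and 241.4, 192.6, 207.5 and 191.3 in IFNg. Litter 1 was higher with IFN-γ and the other 3 litters were lower. The log2 fold change of -0.08 ± 0.14 (95% interval -0.36 to 0.19) leaves the widest interval of the members.

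**Figure D2:**
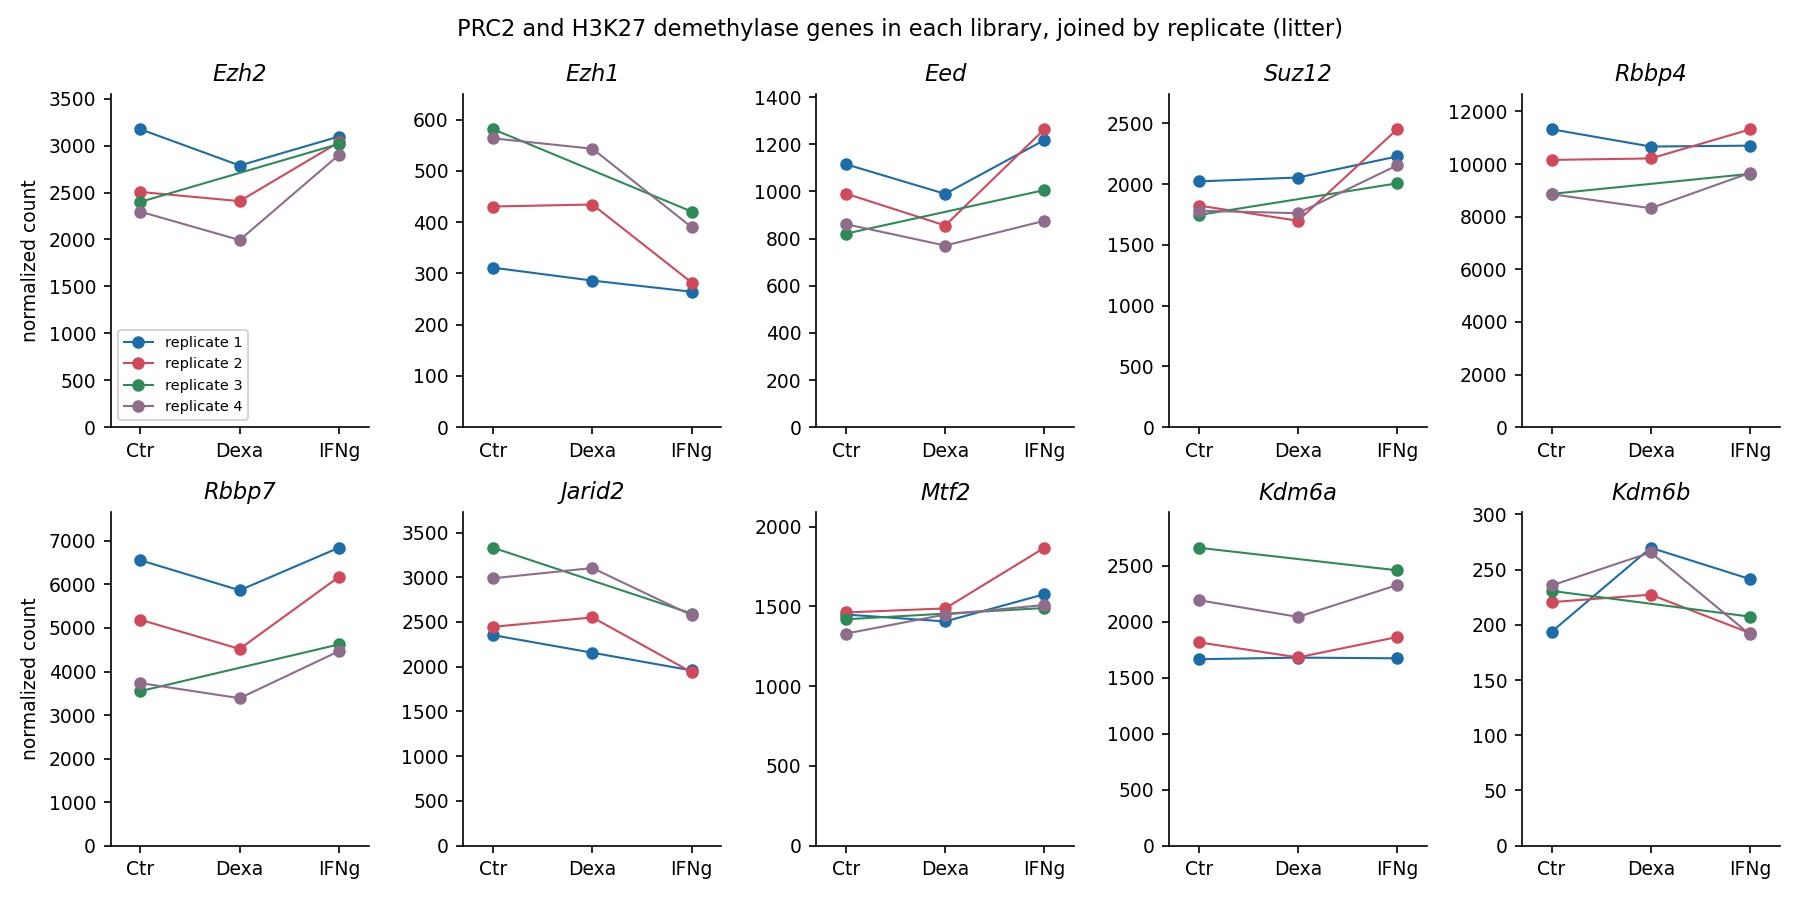
Normalized counts (from 0) of each member in Ctr, Dexa and IFNg, 1 point per library, with lines joining the libraries of a litter; Dexa replicate 3 is left out. Ezh1 falls in each litter from Ctr to IFNg and Suz12 climbs in each, while litters 1 and 2 stay above litters 3 and 4 for Rbbp7, with 6556 against 3550 at the extremes in Ctr.

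The second comparison asks about the glucocorticoid. Dexamethasone left 0 of the 10 members called, with 0 also at an unadjusted p under 0.05 and 0 in edgeR. Over all genes 2.57% were called (2.05% higher and 0.513% lower), 0.547% without the block and 1.57% in edgeR. The median log2 fold change was -0.05 over the members and -0.002 over all genes, and the median size was 0.07 against 0.11.

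Ezh2 in Dexa litters 1, 2 and 4 counted 2788, 2408 and 1994, below Ctr in each (log2 fold change -0.13, 95% interval -0.32 to 0.06). Eed was likewise below Ctr in 3 of 3 litters (-0.17, interval -0.37 to 0.03), as was Rbbp7 (-0.14, interval -0.30 to 0.01), which was called only when the Dexa and Ctr libraries were fitted alone (-0.17, adjusted p = 0.0407). Kdm6b counted 269.8, 227.3 and 265.6, above Ctr in 3 of 3 litters (0.21, interval -0.10 to 0.52). Ezh1, Suz12, Rbbp4, Jarid2, Mtf2 and Kdm6a had log2 fold changes of -0.09 to 0.01.

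Dexa replicate 3 could be added for the 4 members it lists whole. Over the 6319 genes tested on 12 libraries 3.59% were called and none of the 4 members was. Kdm6b counted 254.8 in that library and had a log2 fold change of 0.22 ± 0.13 (adjusted p = 0.568), Suz12 -0.09, Ezh1 -0.02 and Jarid2 0.01.

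IFNg and Dexa were also set against each other, on the same libraries as above, so the values below are not independent of the earlier ones. There 6 of 10 members were called, 4 higher and 2 lower in IFNg. Of all genes 31.6% were called (16.2% higher and 15.4% lower), 33.7% in edgeR, which also called 6 members, and 13.1% without the block, where 0 members were. Ezh2 was 0.36 ± 0.10 higher on the log2 scale (adjusted p = 0.000983), Rbbp7 0.38 ± 0.08 higher (1.98e-05), Eed 0.37 ± 0.10 higher (0.00132) and Suz12 0.30 ± 0.09 higher (0.00479). Ezh1 was lower by -0.41 ± 0.13 (adjusted p = 0.00577) and Jarid2 by -0.28 ± 0.08 in counts (0.00246), which turned to 0.08 on the TPM scale. With the transcript length offset Ezh2 (adjusted p = 0.107), Ezh1 (0.0622) and Jarid2 (0.480) were not called, and with only the groups compared Ezh2 and Rbbp7 were the 2 members called. Of the members not called, Kdm6b was lower in 3 of 3 litters (-0.29, 95% interval -0.61 to 0.02), and Kdm6a (0.09, interval -0.07 to 0.25), Mtf2 (0.17, adjusted p = 0.150) and Rbbp4 (0.13, adjusted p = 0.180) had positive changes. Ezh2 and Mtf2 were the members whose groups did not overlap, against 19.9% of all genes.

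Calls in this comparison rested in part on 1 library. Without Dexa 2, calls of Ezh1 (adjusted p = 0.158), Eed (0.0881), Suz12 (0.167) and Jarid2 (0.118) were lost, which left 2 members called. Ezh1 was also lost without Dexa 4 (0.0709) or IFNg 2 (0.0885), Suz12 without IFNg 2 (0.0745) and Jarid2 without Dexa 4 (0.0563), while Rbbp4 was called without IFNg 1 (0.0299). Ezh2 and Rbbp7 were called whichever single library was left out.

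**Figure D3:**
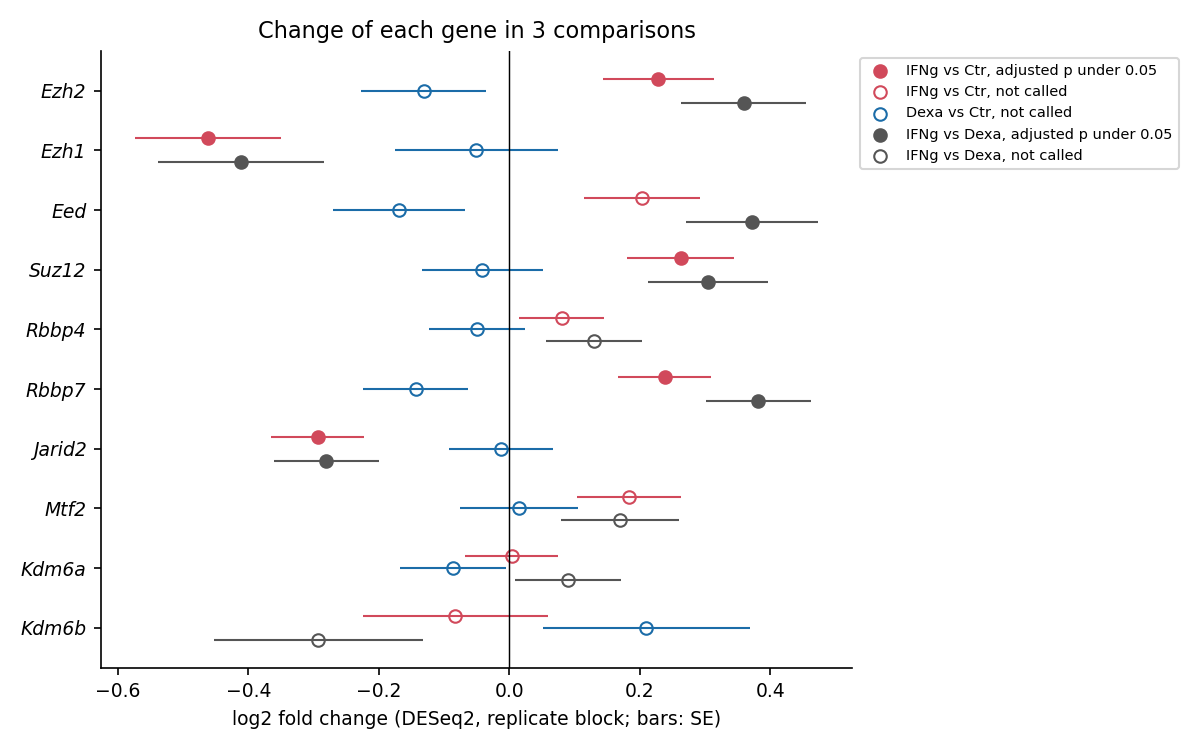
Log2 fold change of each member with its SE, from DESeq2 with the replicate block, in IFNg vs Ctr (red), Dexa vs Ctr (blue) and IFNg vs Dexa (grey); filled points have an adjusted p under 0.05. In counts Ezh1 lies at -0.46 and Jarid2 at -0.29 in IFNg vs Ctr (Jarid2 turns to 0.03 on the TPM scale), and no Dexa vs Ctr point is filled.

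Litters differed widely. For 8 of the 10 members, all but Suz12 and Mtf2, the range between litters in Ctr was larger than the change upon IFN-γ, as for 83.6% of all genes tested. Rbbp7 differed 1.85-fold between its highest and lowest Ctr litter and Ezh1 1.87-fold, against a median of 1.51-fold over all genes. Mtf2 differed by 1.10-fold.

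In Ctr most members fell on opposite sides of this spread. There, litter 1 was the highest for Ezh2, Eed, Suz12, Rbbp4 and Rbbp7 and the lowest for Ezh1, Jarid2, Kdm6a and Kdm6b. This order held only in part in IFNg, where litter 1 was the highest for 3 members and the lowest for 2. Kdm6b was then highest in litter 1 (241.4). A list of 19 S phase and cell cycle genes had summed normalized counts of 160671, 123178, 70192 and 58808 in Ctr litters 1 to 4. The sums were 146483, 108635 and 47898 in Dexa litters 1, 2 and 4, and 167977, 166067, 121494 and 115093 in IFNg. The sum was thus above Ctr in every IFNg litter and below it in each Dexa litter. Of the OPC markers, Pdgfra, Cspg4 and Sox10 were lowest in litter 1 in each group, but Olig1 in Ctr and Ptprz1 in Dexa were not. The astrocyte marker Aldh1l1 was higher in litters 1 and 2 (18.2 to 31.5 TPM) than in 3 and 4 (4.72 to 13.9 TPM). Gja1 was likewise higher in litters 1 and 2, while Gfap, Aqp4 and Slc1a2 overlapped between these litters. The part of dividing cells or of other cells in the member values was not tested.

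**Figure D4:**
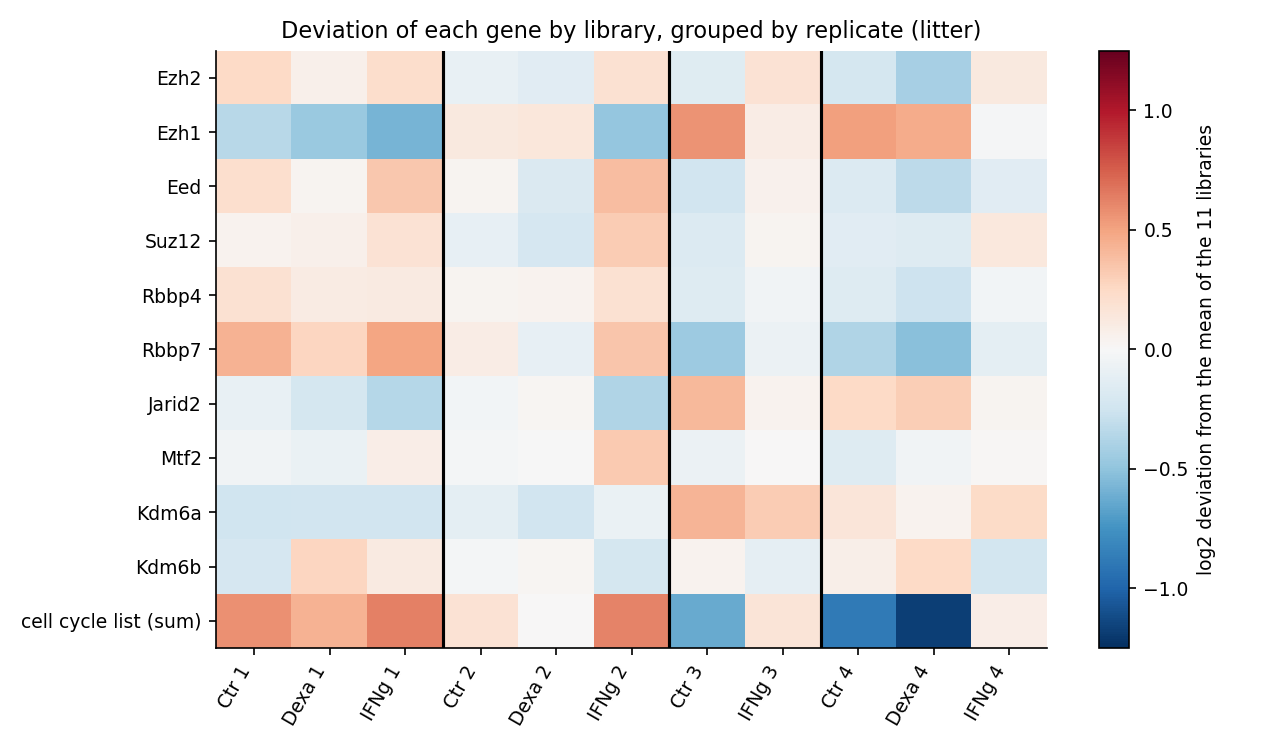
Log2 deviation of each member, and of the summed cell cycle list, from its mean over the 11 complete libraries, with libraries grouped by litter (red above, blue below the mean). Rbbp7 and the cell cycle list are above their means in all litter 1 libraries, where Ezh1, Jarid2 and Kdm6a are below.

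Like Ezh1 and Jarid2, neither of them X-linked, Kdm6a was highest in litter 3 both in Ctr (2662) and in IFNg (2460, against 2329 in litter 4). Its Y-linked paralogue Uty was listed at 0 TPM in Ctr 3 and at 0.0104 TPM in IFNg 3, against 1.91 to 3.77 TPM in the other complete libraries. The Y-linked genes Ddx3y, Kdm5d and Eif2s3y were at 0 to 0.026 TPM in these same 2 libraries and at 2.28 TPM or more in the others, and Xist, the RNA of the inactive X chromosome, was highest there at 31.5 and 26.2 TPM against 8.16 to 22.9 TPM. These genes, Uty apart, were chosen after the values of Uty were seen. Kdm6a is known to escape X inactivation, and the part of the pups' sex in its level was not tested. Without litter 3 in any group its IFNg vs Ctr change was 0.04 (adjusted p = 0.804).

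Most reads of the catalytic genes fell on few transcripts. The coding Ezh2 transcript of 2115 bases held 47.9% of the Ezh2 reads on average in Ctr, 46.3% in Dexa and 43.1% in IFNg, and the coding transcript of 2787 bases 25.0%, 26.3% and 32%. The share of the latter was above Ctr in IFNg litters 1, 2 and 3 and not in litter 4 (21.4% against 22.4%). For Ezh1, the transcript of 4193 bases held 70.5% in Ctr and 71.0% in IFNg. Coding transcripts held 88.4% ± 1.59 of the Jarid2 reads in Ctr and 84.8% ± 2.58 in IFNg (SD, n = 4). Shares of transcripts are Salmon estimates and were not tested.

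The rest of the pathway was read from lists of genes by role, whose counts upon IFN-γ stand against 29.2% of all genes called with the block and 12.8% without. With the block, list counts in IFNg vs Dexa stand against 31.6% of all genes and those in Dexa vs Ctr against 2.57%. Of 10 other PRC2 accessory or opposing factors tested, 1 rose and 1 fell upon IFN-γ, and 0 were called without the block. Phf19, an accessory subunit related to Mtf2, rose by 0.51 ± 0.16 on the log2 scale (adjusted p = 0.00732), and Lcorl fell by 0.32 (0.0129). Against Dexa, Phf19 (0.66) and Epop (0.54) were higher in IFNg, and Lcorl (-0.40) and Lcor (-0.29) lower. None was called in Dexa vs Ctr, where Asxl3 (0.41, adjusted p = 0.101) and Lcor (0.15, 0.837) had the lowest p. The median change of these genes was 0.06 in IFNg vs Ctr.

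Of 5 other enzymes that act on H3K27, 2 fell upon IFN-γ and none rose, and 0 were called without the block in any comparison. Kdm7a, a demethylase of other repressive marks as well, fell by 0.53 (adjusted p = 1.14e-08) and the acetyltransferase gene Crebbp by 0.17 (0.0366). Kdm7a was also the single one of these called upon dexamethasone, higher by 0.32 (0.0338, but 0.0901 in edgeR). In IFNg vs Dexa Kdm7a (-0.84), Crebbp (-0.23) and Ep300 (-0.19) were lower.

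PRC1, the complex that binds H3K27me3 or acts beside it, had 4 of 22 genes higher and 2 lower upon IFN-γ, against 29.2% of all genes called in either direction, with a median of -0.04. Phc2 rose by 0.60 ± 0.08 (adjusted p = 3.17e-14) and Pcgf5 by 1.07 ± 0.14 (8.25e-14), while Cbx8 (-0.31) and Ring1 (-0.32) fell. Without the block 3 of the 22 were called. Against Dexa 4 were higher and 4 lower (31.6% of all genes were called there), led by Pcgf5 (1.09), Phc2 (0.46), Ring1 (-0.34) and Cbx6 (-0.24). None was called upon dexamethasone, where Phc2 (0.15, adjusted p = 0.681) and Phc3 (0.14, 0.749) came first.

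Genes of the H3K4 methyltransferase complexes, which write the opposing mark, had 1 of 16 higher and 2 lower upon IFN-γ, with a median of -0.02. Without the block 1 of the 16 was called. Dpy30 rose by 0.23 (adjusted p = 0.0355), and Kmt2b (-0.22, 0.0189) and Cxxc1 (-0.18, 0.0332) fell. In IFNg vs Dexa Dpy30 (0.37) and Paxip1 (0.22) were higher and Kmt2b (-0.27) and Kmt2d (-0.29) lower. Upon dexamethasone none was called, with Dpy30 at -0.14 (adjusted p = 0.850) and Rbbp5 at -0.10 (0.896).

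Of 9 genes whose products share RBBP4 or RBBP7 in other complexes or work with these, 4 rose and none fell. Chaf1b (0.91 ± 0.16) and Chaf1a (0.63 ± 0.14), which load histones onto new DNA, rose with the histone acetyltransferase gene Hat1 (0.61 ± 0.11) and with Hdac1 (0.28 ± 0.07). The same 4 were higher in IFNg than in Dexa, by 0.34 to 1.18. Without the block none of the 9 passed in IFNg vs Ctr. In Dexa vs Ctr none was called, with Hdac2 at -0.14 (adjusted p = 0.690) and Sin3a at -0.11 (0.749), and the median was -0.11.

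The cell cycle list moved together. Upon IFN-γ 16 of its 19 genes rose and none fell, with a median of 0.52, and 0 passed without the block. Mcm7 (0.62), Mcm6 (0.72) and Mcm5 (0.75), parts of the helicase that opens replication origins, and Rrm2 (0.78), which makes DNA precursors, had the lowest adjusted p, from 6.21e-08 to 2.20e-06. Upon dexamethasone none was called and all 19 changes were negative, with a median of -0.18; Tyms (-0.33, adjusted p = 0.126) and Cdk1 (-0.29, 0.616) had the lowest p. Against Dexa 17 were higher in IFNg, with a median of 0.71, led by Tyms (0.82), Mcm7 (0.80), Mcm6 (0.90) and Mcm5 (0.93).

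Classical PRC2 targets were mostly silent. Of 46 such genes, the Hox clusters among them, 37 stayed under 0.1 TPM in every complete library and 6 passed the filter. Cdkn2a and Cdkn2b, neighbouring genes of cell cycle inhibitors, both rose by 0.88 on the log2 scale upon IFN-γ (adjusted p = 4.40e-06 and 9.75e-07), and without the block 1 of the 6 was called. Cdkn2a counted 135.7 ± 73.8 in Ctr and 240.6 ± 110 in IFNg, and Cdkn2b 90.8 ± 24.0 and 168.9 ± 59.9 (SD, n = 4). Cdkn2a was also higher in IFNg than in Dexa (1.08). Upon dexamethasone none was called, with Cdkn2b at 0.44 (adjusted p = 0.319).

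Cell type markers moved with IFN-γ as well. Of 8 OPC markers 5 were lower and none higher (1 was called without the block, and 14.1% of all genes were lower with it), with a summed level of 799.6 to 1473 TPM in Ctr and 685.4 to 1382 TPM in IFNg, and none was at 0. Of 5 astrocyte markers 2 were higher, Gfap (4.10) and Aldh1l1 (0.76), and 2 lower, Aqp4 (-0.81) and Gja1 (-0.36), with sums of 14.04 to 52.2 TPM and 23.9 to 64.6 TPM. The level of Gfap was low, at 0.0329 to 0.327 TPM in Ctr and 1.29 to 3.27 TPM in IFNg. Of 5 neuronal markers Tubb3 (1.52) and Syt1 (1.11) were higher and Snap25 (-0.46) lower, with sums of 138.1 to 264.7 TPM and 209.7 to 261.1 TPM. Most of these sums was Map2, at 124.7 to 250.1 TPM in Ctr and 179.3 to 225.2 TPM in IFNg. Map2 was not called (-0.02), nor was Rbfox3, at 0.289 to 0.482 TPM in Ctr and 0.159 to 0.528 TPM in IFNg. Without the block 1 astrocyte, 2 neuronal and 1 oligodendrocyte marker were called. Of 6 oligodendrocyte markers none was called with the block, with sums of 8.60 to 50.1 TPM and 6.80 to 49.8 TPM, nor was either of 2 microglia markers or 3 endothelial markers tested, whose sums stayed under 1 TPM. The part of these cells in the member values was not tested.

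By likeness over the 11 complete libraries, which share litters, genes among the closest to Ezh2 in log2 CPM were Snrpe (Pearson r = 0.981) and Gabpb1 (0.978). Closest to Ezh1 were Lhfpl4 (0.986), Ap3s2 (0.986) and Ppp1r21 (0.986), and closest to Kdm6a were Tut4 (0.973), Maml2 (0.969) and Rfesd (0.968). Kdm6b had less close companions, Arrdc2 (0.923), Gm42463 (0.911) and Mbd6 (0.901). Among the members Ezh1 and Jarid2 were the most alike (0.965), and Ezh1 and Rbbp7 the most opposed (-0.928). These values describe 11 libraries, and the parts of litter and treatment in them were not tested.

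**Figure D5:**
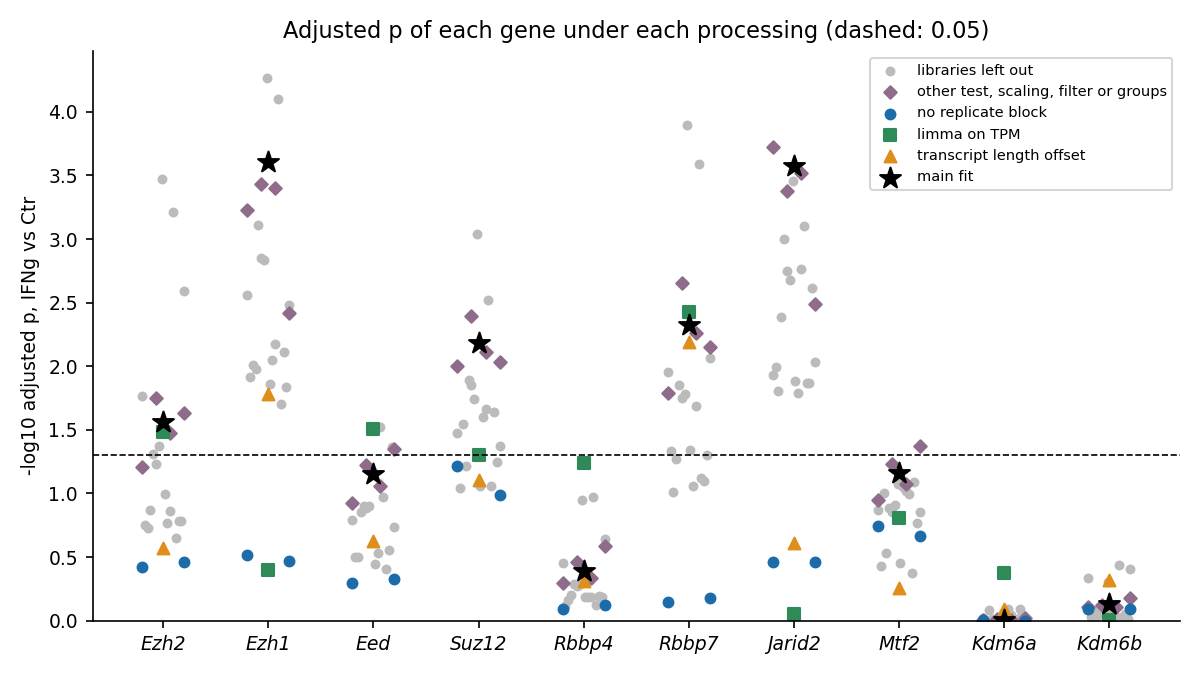
Adjusted p of each member in IFNg vs Ctr on a -log10 axis, for the fit reported (star) and each alternative, with the threshold of 0.05 dashed. Points without the replicate block lie under the line for all 10 members, and Ezh1 lies above it whichever library is left out.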

How the data were processed

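Primary OPC cultures were measured by stranded total RNA-seq, 12 libraries in 3 groups of 4 litters. After read trimming the authors used Salmon 0.8.2 and deposited an estimated count and a TPM value per transcript. Whether Salmon was told the strand is not given in the sources used here, so genes that overlap on the other strand may share reads. The study's methods name an Ensembl v75 annotation, but the transcript identifiers matched GENCODE M21 (GRCm38), with 0 transcripts unmatched. The authors also deposited DESeq2 tables with their fold changes and p-values, which were not used.

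Estimated counts were summed per gene and rounded, and a gene was kept where 4 or more libraries had 10 or more counts. The test was DESeq2 1.42.0 (R 4.3.3), replicate number as a block and group as the factor, with Benjamini-Hochberg adjustment over all genes tested. Size factors of DESeq2 scaled the normalized counts, and SE and 95% intervals (1.96 SE) come from this fit. The block was taken since the labels give each replicate its own litter and the members were to be paired by replicate. Deviations from the group means correlated at 0.404 to 0.722 between libraries of the same number and at -0.614 to 0.495 otherwise. No replicates in a group agreed within sampling noise. Alternatives were edgeR 4.0.16, limma 3.58.1 on log2(TPM + 1), no block, other scaling, no filter, a transcript length offset, only the groups compared, and libraries left out. Leaving out the tables with 6 decimals was chosen after seeing the data. The fits were tested on simulated data with planted changes larger than those of the members. That test cannot show how well changes as small as theirs are called.

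All 10 members are named in each comparison. From each list up to 4 called genes with the lowest adjusted p are named, or up to 2 with the lowest p if none was called. Some items that these rules select are not reported here. Likeness is Pearson's r of log2(CPM + 0.5) over genes with a mean count of at least 100. Members, lists and motifs were chosen with earlier results of these data known. Counting error is small at these depths for most members. It is larger for Kdm6b, with 149 to 356 estimated reads per complete library, and for Ezh1, with 265 to 844. Duplicates from PCR were not separated.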

Additional observations from a re-analysis of the deposited data

Results flagged for a closer look

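Kdm6b in Dexa replicate 2, at a normalized count of 214.6 on the scale of all 12 libraries, lay apart from the other 3 Dexa libraries by 0.883 of the group's whole range, above Dixon's 95% limit for 4 samples. It was 1 of 24 groups of 4 that were checked, and chance flags about 1 in 20 such groups. The gene is among the lowest of the members.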

How the results depend on the processing

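Without the replicate block 0 members were called in any comparison, in DESeq2 and in edgeR; genes called went from 5238 to 2302 and 1513 in IFNg vs Ctr, from 460 to 98 and 22 in Dexa vs Ctr, and from 5661 to 2345 and 1571 in IFNg vs Dexa. With the transcript length offset 2 members and 4833 genes were called in IFNg vs Ctr, and 3 members in IFNg vs Dexa. In limma on log2(TPM + 1) 3 members and 4454 genes were called in IFNg vs Ctr, and 117 genes in Dexa vs Ctr. On that scale Jarid2 turned to 0.028 (IFNg vs Ctr) and 0.079 (IFNg vs Dexa), and the median of all genes moved to 0.09 and 0.10. With only the groups compared, Dexa vs Ctr had 1026 genes and 1 member, and IFNg vs Dexa 3563 genes and 2 members. In Dexa vs Ctr edgeR called 282 genes and the fit on 12 libraries 227 of the fewer genes tested, and 300 genes were called without the 6-decimal tables. Leaving out 1 library gave 2 to 5 members and 3722 to 5006 genes in IFNg vs Ctr, 0 members and 189 to 546 genes in Dexa vs Ctr, and 2 to 7 members and 3721 to 5230 genes in IFNg vs Dexa. Leaving out a litter in all groups gave 2 to 5 members and 3407 to 4643 genes, 0 members and 175 to 424 genes (259 without litter 1), and 2 to 6 members and 3398 to 4980 genes.

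Values near 0 changed sign. Kdm6a in IFNg vs Ctr became -0.033 with the length offset, -0.0024 and -0.0021 without the block (DESeq2 and edgeR), -0.012 without the 6-decimal tables, -0.024 to 0.046 without 1 library, and -0.0074 and -0.025 without litters 2 and 4. In Dexa vs Ctr, Jarid2 became 0.0085 with 12 libraries and ranged from -0.062 to 0.048 without 1 library (0.041 and 0.00071 without litters 1 and 3). Mtf2 ranged from -0.036 to 0.054 (-0.035 without litter 4), Suz12 from -0.11 to 0.031 (0.0017 without litter 2) and Ezh1 from -0.12 to 0.031. Without the 6-decimal tables Mtf2 became -0.019, Ezh2 0.034 and Rbbp4 0.045. The causes were not tested. Of the other values of single members, 616 kept direction and side of the threshold, 72 lost the call and 8 gained it. Kdm6b had the fewest reads and the widest intervals.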
